A study of Homo sapiens with 6 samples.

Results

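The cabazitaxel-resistant prostate cancer line CabR was compared with its parental line C4-2B, with 1 RNA library each. C4-2B, derived from the human LNCaP line, is castration-resistant and expresses the androgen receptor. The comparison covers the total change after both selections, since CabR was derived from TaxR, a docetaxel-resistant C4-2B subline. Of 60658 listed genes, 14444 reached 1 FPKM in either library and were measured, and 11824 of these are protein-coding. FPKM is the number of fragments scaled for transcript length and library size. A gene was called higher or lower in CabR when the log2 ratio of (FPKM + 1) was 1 or more in either direction. The added 1 shrinks the ratios of low genes.

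CabR was maintained in 5 nM cabazitaxel, TaxR in 5 nM docetaxel, and C4-2B is the parental line. The cells were grown in RPMI medium with serum, and per the labels they had no treatment before harvest. CTXR is the matching cabazitaxel-resistant line of the androgen receptor-negative DU145 lineage, likewise derived through a docetaxel-resistant line and kept in 5 nM cabazitaxel. Each resistant line stands for 1 selection. With 1 library per line no difference has a replicate check, so values are described by size and no p-value is given. Whole-culture RNA was measured, so fewer cells of a type and less RNA per cell cannot be told apart.

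Docetaxel and cabazitaxel bind beta-tubulin and stabilise microtubules, which blocks mitosis and transport along microtubules. Cells can withstand them by pumping the drug out through P-glycoprotein, the product of ABCB1, by changing tubulin or its binding partners, or by tolerating the mitotic block. In prostate cancer the androgen receptor drives the luminal programme that includes the kallikreins and lipid synthesis.

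The luminal identity of both libraries was checked first. All 10 luminal markers reported here were measured in both, among them the cytokeratins KRT8, at 169 FPKM in CabR, against 257 in C4-2B, and KRT18, at 212 in CabR, against 215 in C4-2B. The homeobox factor HOXB13 had 75.7 FPKM in CabR, against 101 in C4-2B, and the prostate-specific membrane antigen FOLH1 had 222 in CabR, against 250.1 in C4-2B. Of the 10 luminal markers 4 were lower in CabR (SLC45A3, KLK3, TMPRSS2 and CDH1) and none was higher, with a median log2 ratio of -0.51. Markers of other cell types were few. Of 7 basal markers 2 were measured, and of the neuroendocrine, fibroblast, endothelial and immune markers 1 each, with summed levels per list of 0.530 to 6.26 FPKM in CabR, against 1.41 to 13.03 in C4-2B. The measured ones of these last 4 lists were SYP, COL1A1, VWF and CD68, in that order. COL1A1 had 6.10 FPKM in CabR, against 12.3 in C4-2B. CD68 was lower, with 0.862 FPKM in CabR, against 6.81 in C4-2B, and the others did not pass the size rule. CHGA, NEUROD1, FAP, ERG and PTPRC were among the markers listed at 0 in both libraries. Genes typical of the DU145 lineage stood apart in TaxR, where S100A6 had 8.06 FPKM and ANXA1 had 3.16 FPKM, against at most 0.353 FPKM for either gene in CabR and 0 in C4-2B. The part of this in the TaxR values given here was not tested. Total FPKM was 761774 in CabR, against 711766 in C4-2B, and without read totals the sequencing depth is unknown.

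A total of 466 genes (3.23% of those measured) were higher in CabR and 1081 (7.48%) were lower. Among protein-coding genes 295 (2.49%) were higher and 670 (5.67%) were lower. The median log2 ratio was -0.04 over all measured genes and -0.01 over protein-coding genes, close to 0 although lower calls were 69.9% of all calls. Past a log2 ratio of 2 in size there were 64 higher and 149 lower genes, and past 3 there were 14 and 41. Many genes lay near the threshold, with 714 at a size between 0.9 and 1.1. SEMA3C, a secreted semaphorin, at 39.5 FPKM in CabR, against 19.2 in C4-2B, lay just inside it, and the TGF-beta feedback gene PMEPA1, at 62.9 FPKM in CabR, against 127 in C4-2B, just outside. Calls of low genes depend on the added 1. With 5 added in its place, 55 of the 166 genes picked by the naming rule no longer passed, among them SLCO3A1, SLC22A23, MAP1B, UGT2B17, HSD3B1, CYP11A1, BBC3, BARD1, CDKN2A, HLA-E, HLA-F, EGF, LAMB1, MMP14, SNAI2, HOXB6, HOXD13, SPAG16 and CR1. MAP1B and NQO1 also fell under the rule when the libraries were scaled to the same upper quartile.

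**Figure D1:**
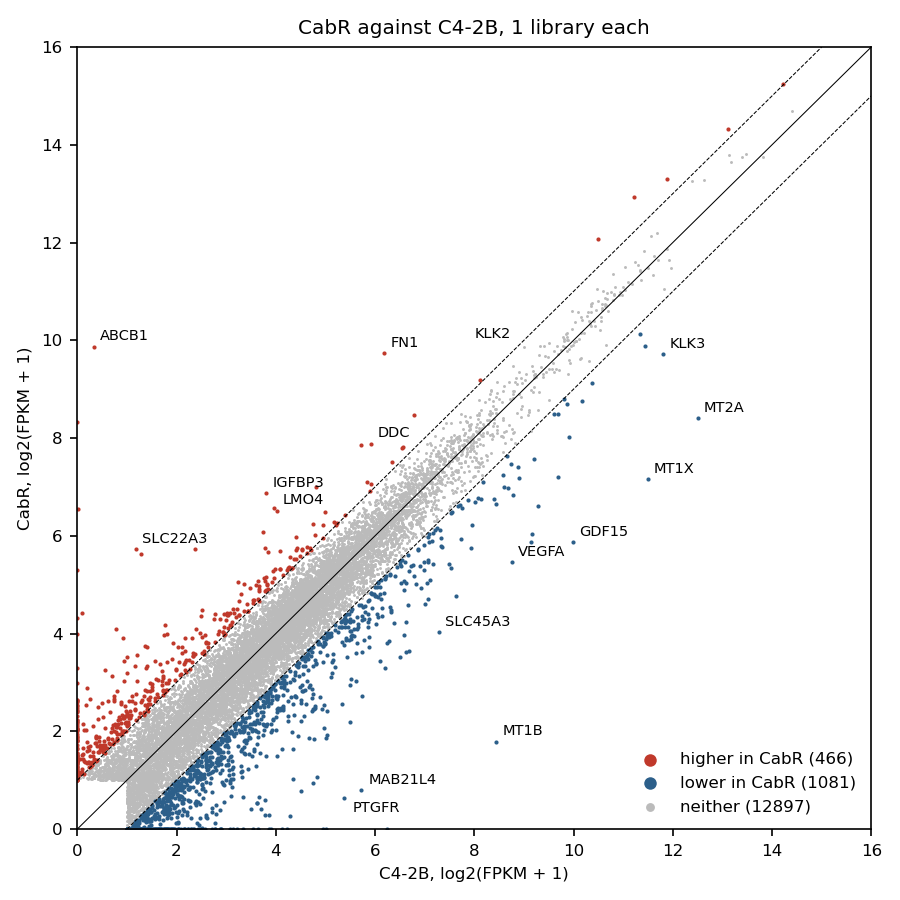
Level of each of 14444 measured genes in CabR (vertical axis) against C4-2B (horizontal axis), both as log2(FPKM + 1) with 1 library each. Dashed lines mark a log2 ratio of 1 in size. ABCB1 is at 936 FPKM in CabR and stands alone at the upper left, while metallothioneins, VEGFA and SLC45A3 lie far below the lower line.

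ABCB1, which encodes the drug pump P-glycoprotein, had the highest log2 ratio of the protein-coding genes with a gene symbol. Ranks below are among the same genes, which leave out those that carry only a clone name. It stood at 936 FPKM in CabR and 526 in TaxR, against 0.259 in C4-2B, a log2 ratio of 9.54. Its chromosome 7 neighbour RUNDC3B lies across ABCB1 on the opposite strand and had 20.4 FPKM in CabR and 11.4 in TaxR, against 0.0679 in C4-2B. Whether counting used strand is not stated in the sources, so reads of ABCB1 and RUNDC3B may not be separated.

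The other efflux pumps did not share this rise. Of 9 measured drug efflux transporters ABCB1 alone was higher and 2 were lower. ABCC1, the multidrug resistance protein that exports glutathione conjugates, had 19.5 FPKM in CabR and 35.2 in TaxR, against 69.7 in C4-2B. ABCC4, an exporter of cyclic nucleotides that androgen induces, had 27.4 FPKM in CabR and 18.7 in TaxR, against 71.9 in C4-2B. The breast cancer resistance protein ABCG2 was low in both, at 1.02 FPKM in CabR, against 1.101 in C4-2B. The summed level of the list was 1067 FPKM in CabR, against 258 in C4-2B, and ABCB1 gave 936 FPKM of the CabR sum.

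SLC22A3, a low-affinity organic cation transporter also called OCT3, had the second-highest ratio of the protein-coding genes, 4.55. Its level was 51.98 FPKM in CabR and 0.174 in TaxR, against 1.27 in C4-2B, so it was high in CabR and low in both other libraries of the lineage. SLCO3A1, an organic anion carrier, had 4.33 FPKM in CabR and 1.48 in TaxR, against 0.981 in C4-2B, and was higher. SLC22A23, an orphan member of the family, had 3.46 FPKM in CabR and 4.83 in TaxR, against 10.5 in C4-2B, and was lower. The other 6 of 9 measured carriers did not pass the size rule.

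Among the taxane targets, 14 of 15 measured tubulins did not pass the rule. TUBB3, the neuronal class III beta-tubulin, was the exception and was lower (6.67% of the list, against 7.48% of all measured genes). It had 6.74 FPKM in CabR and 10.9 in TaxR, against 22.1 in C4-2B. The abundant isotypes had log2 ratios between 0.09 for TUBB, at 629 FPKM in CabR, against 589 in C4-2B, and 0.69 for TUBB4B, at 562 in CabR, against 349 in C4-2B. Of 21 microtubule-associated proteins and stathmins 1 was lower (4.76%, against 7.48% of all measured genes), and the other 20 did not pass. The lower one was MAP1B, a neuronal microtubule binder, with 14.1 FPKM in CabR and 12.2 in TaxR, against 29.99 in C4-2B.

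Genes of the hypoxia response had the lowest median of the 58 gene lists described. Hypoxia-inducible factor, a dimer of HIF1A or a paralog with ARNT, binds a short core sequence near genes for oxygen delivery, glucose uptake and glycolysis, and prolyl hydroxylases such as EGLN1 mark it for destruction when oxygen is present. Of 24 measured genes of this list, including the factor itself, 21 were lower in CabR and none was higher, and the median log2 ratio was -2.05, against -0.04 over all measured genes. The promoters of BNIP3, ALDOC, ANKRD37 and PGK1, 4 of the lower genes, are shown because they carry several copies of that core. They are the 250 bases before a gene's start in the RefSeq table for GRCh38.p14, printed 5′ to 3′ on the gene's strand, with capitals marking matches to ACGTG or GCGTG on either strand and a CACGTG counted as 2 overlapping matches. BNIP3 lies at chr10:131981924-131982173 on the minus strand, ALDOC at chr17:28576896-28577145 on the minus strand, ANKRD37 at chr4:185396591-185396840 on the plus strand and PGK1 at chrX:78103998-78104247 on the plus strand.
BNIP3: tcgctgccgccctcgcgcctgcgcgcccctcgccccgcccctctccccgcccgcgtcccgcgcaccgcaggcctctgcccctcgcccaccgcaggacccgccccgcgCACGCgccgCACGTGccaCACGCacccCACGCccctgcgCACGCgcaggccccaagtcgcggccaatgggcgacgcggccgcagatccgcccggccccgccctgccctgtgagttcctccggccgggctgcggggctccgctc
ALDOC: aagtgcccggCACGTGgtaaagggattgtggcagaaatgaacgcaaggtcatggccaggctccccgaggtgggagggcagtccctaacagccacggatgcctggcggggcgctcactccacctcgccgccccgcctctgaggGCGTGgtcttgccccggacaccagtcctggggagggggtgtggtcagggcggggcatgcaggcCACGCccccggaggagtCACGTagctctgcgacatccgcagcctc
ANKRD37: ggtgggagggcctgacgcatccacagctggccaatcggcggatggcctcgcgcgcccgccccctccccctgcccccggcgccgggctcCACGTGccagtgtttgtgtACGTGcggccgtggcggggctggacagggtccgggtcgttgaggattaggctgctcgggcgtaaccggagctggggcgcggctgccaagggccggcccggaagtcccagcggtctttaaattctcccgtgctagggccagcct
PGK1: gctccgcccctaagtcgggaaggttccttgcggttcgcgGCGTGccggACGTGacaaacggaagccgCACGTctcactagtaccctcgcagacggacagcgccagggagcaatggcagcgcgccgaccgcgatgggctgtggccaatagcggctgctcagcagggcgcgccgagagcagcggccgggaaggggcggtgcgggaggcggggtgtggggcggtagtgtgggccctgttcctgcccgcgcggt
They hold 6, 5, 3 and 3 matches, in that order. Of 31 lower genes of the hypoxia and glycolysis lists 26 were in the table, 22 of them (84.6%) held at least 1 match and 10 (38.5%) held 3 or more, taking the start with the most matches for each gene. Over 21486 starts of coding genes, each counted once, the shares were 49.5% and 9.48%. Taking the best of several starts raises the shares of the listed genes, so these shares are not like for like. A match is a description of these letters and does not show binding.

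Secreted proteins were among the members with the lowest ratios. VEGFA, the main growth factor for blood vessels, had 43.2 FPKM in CabR and 79.6 in TaxR, against 431 in C4-2B. STC1, a secreted glycoprotein hormone, had 0.726 FPKM in CabR and 1.32 in TaxR, against 21.6 in C4-2B, and its paralog STC2 had 12.9 in CabR and 14.95 in TaxR, against 74.9 in C4-2B. LOX, which cross-links collagen, had 1.097 FPKM in CabR and 2.24 in TaxR, against 27.5 in C4-2B. The 3 genes with the lowest levels in CabR were thus LOX, STC1 and CA9, a cell surface carbonic anhydrase with 0.544 FPKM in CabR and 1.104 in TaxR, against 4.76 in C4-2B. NDRG1, a stress gene that androgen also induces, had 57.3 FPKM in CabR and 89.1 in TaxR, against 561 in C4-2B, and it was the most abundant member in C4-2B.

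Genes that adjust mitochondria and metabolism to low oxygen fell as well. BNIP3, which marks mitochondria for removal, had 114 FPKM in CabR and 156 in TaxR, against 439 in C4-2B, and its paralog BNIP3L had 33.4 in CabR and 46.6 in TaxR, against 137 in C4-2B. PDK1, which keeps pyruvate out of the citrate cycle, had 13.1 FPKM in CabR and 16.5 in TaxR, against 49.1 in C4-2B. PFKFB4, which sets the activator of phosphofructokinase, had 11.2 FPKM in CabR and 13.7 in TaxR, against 97.2 in C4-2B. The collagen prolyl hydroxylase P4HA1 had 25.2 FPKM in CabR and 33.2 in TaxR, against 133 in C4-2B. The oxygen sensors EGLN1 and EGLN3, themselves targets, had log2 ratios of -1.44 and -2.28. Levels in TaxR were close to those in CabR for most of these genes, and the median over the list was -1.998 for TaxR against C4-2B, a comparison that shares the C4-2B library.

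The mRNAs of the factor itself did not move with its targets. HIF1A had 34.3 FPKM in CabR and 41.3 in TaxR, against 34.2 in C4-2B, a log2 ratio of 0.0016, and ARNT had 12.1 in CabR and 12.2 in TaxR, against 13.6 in C4-2B. CA12, another carbonic anhydrase, had 9.05 FPKM in CabR and 7.54 in TaxR, against 8.25 in C4-2B, and also did not pass the rule. The 2 subunits and CA12 were the only members of the list outside the rule.

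**Figure D2:**
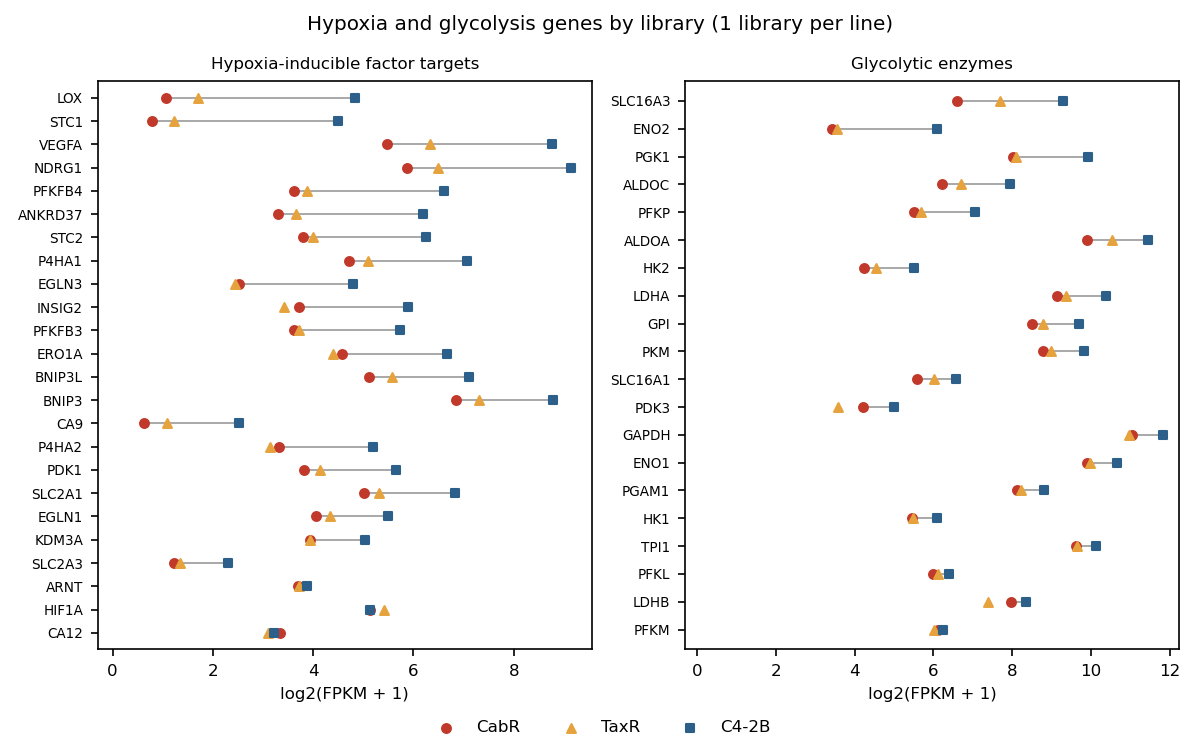
Level of each measured hypoxia-inducible factor gene (left) and glycolytic gene (right) in CabR (circles), TaxR (triangles) and C4-2B (squares), as log2(FPKM + 1) with 1 library per line and genes in order of the CabR over C4-2B ratio. Nearly all circles lie left of their squares, most triangles lie near the circles, and HIF1A, at 34.3 FPKM in CabR and 34.2 in C4-2B, shows no gap.

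Glycolysis followed the same direction with smaller sizes. Of 20 measured glycolytic genes 10 were lower and none was higher, and all 20 ratios were below 0, with a median of -1.005. SLC16A3, the lactate exporter MCT4, had 96.7 FPKM in CabR and 205 in TaxR, against 619.8 in C4-2B. ENO2, the neuronal enolase, had 9.84 FPKM in CabR and 10.7 in TaxR, against 67.3 in C4-2B, and it overlaps LRRC23 on the same strand. PGK1, which makes the first ATP of the pathway, had 260.4 FPKM in CabR and 273 in TaxR, against 967 in C4-2B. The muscle-type aldolase ALDOA had 949 FPKM in CabR and 1477 in TaxR, against 2760.5 in C4-2B, and lactate dehydrogenase LDHA had 557 in CabR and 652 in TaxR, against 1326 in C4-2B, so both remained abundant in CabR. PFKM, the muscle phosphofructokinase, was nearest to 0, with a log2 ratio of -0.12. The housekeeping enzyme GAPDH had 2116 FPKM in CabR and 2006 in TaxR, against 3611 in C4-2B, and did not pass the rule.

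Some mitochondrially encoded mRNAs went the other way. These transcripts encode core subunits of the respiratory chain and ATP synthase, and 4 of 13 were higher in CabR, none was lower, and the median was 0.65. MT-ND2 had 7839 FPKM in CabR and 8296 in TaxR, against 2368 in C4-2B, and MT-ND1 had 10015 in CabR and 9050.5 in TaxR, against 3755 in C4-2B. MT-CO1, the catalytic subunit of cytochrome oxidase, had 13678 FPKM in CabR and 15567 in TaxR, against 14443 in C4-2B, a log2 ratio of -0.08. Mitochondrial genes made up 26.5% of all FPKM in CabR, against 17.9% in C4-2B. Among 34 nuclear-encoded genes of the respiratory chain only CYCS, cytochrome c, passed the rule (2.94% higher, against 3.23% of all measured genes). It had 221 FPKM in CabR and 129 in TaxR, against 92.5 in C4-2B.

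Metallothioneins held 4 of the 20 lowest ratios of protein-coding genes. They are small cysteine-rich proteins that buffer zinc and copper and are induced through metal response elements by the zinc sensor MTF1. MT1B, MT1F, MT1G, MT1H and MT1X were the only run of 4 or more neighbouring measured coding genes past the rule in 1 direction, at 56651899 to 56684196 on chromosome 16, and MT2A lies nearer to the start of the chromosome. Upstream sequences of MT1H, MT2A, MT1X and MT1B are shown because they hold the most matches to the element's core among the lower genes searched. They come from the same RefSeq table, all on the plus strand of GRCh38.p14, with capitals for matches to TGCACNC or TGCGCNC on either strand. The stretches are chr16:56669564-56669813 for MT1H, chr16:56608334-56608583 for MT2A, chr16:56682220-56682469 for MT1X and chr16:56651636-56651885 for MT1B.
MT1H: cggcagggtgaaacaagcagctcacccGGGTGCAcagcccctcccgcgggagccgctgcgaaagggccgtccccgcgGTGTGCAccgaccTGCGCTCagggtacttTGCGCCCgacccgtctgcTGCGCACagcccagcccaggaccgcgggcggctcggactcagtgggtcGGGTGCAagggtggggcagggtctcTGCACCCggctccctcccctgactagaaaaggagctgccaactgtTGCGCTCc
MT2A: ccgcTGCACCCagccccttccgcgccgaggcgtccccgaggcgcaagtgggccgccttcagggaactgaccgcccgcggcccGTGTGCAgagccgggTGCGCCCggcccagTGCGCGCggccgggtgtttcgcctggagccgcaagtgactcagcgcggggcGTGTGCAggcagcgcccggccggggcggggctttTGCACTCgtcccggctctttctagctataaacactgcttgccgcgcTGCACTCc
MT1X: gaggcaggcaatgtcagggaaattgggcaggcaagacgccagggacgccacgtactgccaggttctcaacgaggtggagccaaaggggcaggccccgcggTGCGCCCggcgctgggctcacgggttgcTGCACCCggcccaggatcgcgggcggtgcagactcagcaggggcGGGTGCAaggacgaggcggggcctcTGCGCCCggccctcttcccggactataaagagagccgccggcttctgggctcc
MT1B: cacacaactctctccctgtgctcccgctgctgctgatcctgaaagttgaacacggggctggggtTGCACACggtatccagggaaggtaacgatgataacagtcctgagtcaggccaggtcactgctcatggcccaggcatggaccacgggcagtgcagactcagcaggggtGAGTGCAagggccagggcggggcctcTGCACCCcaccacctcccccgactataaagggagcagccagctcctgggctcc
They hold 8, 7, 4 and 3 matches, in that order. Of 7 lower genes (6 metallothioneins and SLC30A1) 5 were in the table, all 5 held a match and 4 held 3 or more, again taking the start with the most matches. Of the 21486 coding starts 28.6% held at least 1 match and 1.91% held 3 or more.

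Metallothionein levels in C4-2B were high. MT2A had 338 FPKM in CabR and 109 in TaxR, against 5793 in C4-2B. MT1X had 142 FPKM in CabR and 143 in TaxR, against 2881 in C4-2B, and MT1F had 64.8 in CabR and 27.3 in TaxR, against 572 in C4-2B. MT1G had 10.5 FPKM in CabR and 1.31 in TaxR, against 89.8 in C4-2B, and MT1M, which was low throughout, had 1.002 in CabR and 0.574 in TaxR, against 1.54 in C4-2B, and did not pass. MT1B, at 2.46 FPKM in CabR and 0 in TaxR, against 347 in C4-2B, had the lowest log2 ratio of the ranked protein-coding genes, -6.66. MT1H was listed at 0 in CabR and TaxR, against 5.52 FPKM in C4-2B. The MT2A, MT1B, MT1F and MT1G values were higher in CabR than in TaxR, and those of MT1X were alike. These paralogs are near-identical, and no source used says how their shared reads were divided, so the level of a single member is uncertain.

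The zinc exporter SLC30A1, another MTF1 target, fell with them, with 9.698 FPKM in CabR and 13.5 in TaxR, against 34.3 in C4-2B. The zinc importer SLC39A10 had 9.88 FPKM in CabR and 10.5 in TaxR, against 23.1 in C4-2B, and was lower. MTF1 itself had 6.34 FPKM in CabR and 6.22 in TaxR, against 5.81 in C4-2B, and did not pass. The remaining zinc transporters measured did not pass, and the list of 25 had a median of -0.40.

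Androgen-induced genes were partly lower. Of 29 measured androgen-induced genes 11 were lower and 1 was higher, with a median of -0.76. SLC45A3, the prostein membrane transporter, had 15.3 FPKM in CabR and 63.2 in TaxR, against 155 in C4-2B. KLK3, the gene of prostate-specific antigen, had 841 FPKM in CabR and 3053 in TaxR, against 3567 in C4-2B. TMPRSS2, a surface serine protease, had 100.0 FPKM in CabR and 189 in TaxR, against 344 in C4-2B, and the glucocorticoid receptor chaperone FKBP5 had 61.3 in CabR and 144 in TaxR, against 160.3 in C4-2B. MAF, a basic leucine zipper factor, had 0.452 FPKM in CabR and 0.814 in TaxR, against 11.3 in C4-2B. In FKBP5 and KLK3 the TaxR value lay near that of C4-2B, whereas in NDRG1 and MAF it lay near that of CabR.

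The kallikrein paralogs moved apart. KLK2 had 936 FPKM in CabR and 368 in TaxR, against 515 in C4-2B, a log2 ratio of 0.86 that did not pass the rule, beside -2.08 for KLK3. KLK4, another kallikrein, had 153 FPKM in CabR, against 150.3 in C4-2B. EAF2, an elongation factor partner that androgen induces, was higher, with 12.9 FPKM in CabR and 14.4 in TaxR, against 5.05 in C4-2B. KLK2 and KLK3 are close paralogs that can share reads.

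Androgen pathway cofactors did not pass the rule in any of 14 measured cases, with a median of 0.02. The pioneer factor FOXA1 had 157 FPKM in CabR, against 145 in C4-2B, and GATA2 had 68.9 in CabR, against 88.7 in C4-2B. The lowest ratio of the list was -0.41, at HOXB13. TRIM24, a coactivator, had the highest, 0.53.

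Of 10 measured genes that androgen represses 4 were higher and 2 were lower, with a median of 0.95. That median depends on the treatment of low values, and was 0.30 with a pseudocount of 5, 0.31 with no filter on low values and 1.56 with a pseudocount of 0.1. DDC, the decarboxylase that makes dopamine and serotonin, had 236 FPKM in CabR and 98.9 in TaxR, against 59.4 in C4-2B. UGT2B17, which glucuronidates testosterone and dihydrotestosterone, had 10.2 FPKM in CabR and 2.98 in TaxR, against 2.74 in C4-2B, and its close paralog UGT2B15 had 8.95 in CabR and 2.23 in TaxR, against 4.18 in C4-2B, just under the rule at 0.94. CLU, the secreted chaperone clusterin, was lower, with 23.4 FPKM in CabR and 17.9 in TaxR, against 127 in C4-2B. UGT2B15 and UGT2B17 are similar enough to share reads.

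Of 18 measured genes of androgen synthesis and inactivation 3 were higher (16.7%, against 3.23% of all measured genes). In the same list 1 was lower (5.56%, against 7.48%), and the median was -0.14. HSD3B1, which carries precursors towards androstenedione, had 3.39 FPKM in CabR and 0.377 in TaxR, against 0.657 in C4-2B. SULT2B1, which sulfates hydroxysteroids and cholesterol, had 15.2 FPKM in CabR and 7.85 in TaxR, against 4.58 in C4-2B. CYP11A1, the side-chain cleavage enzyme that opens steroid synthesis, had 0.273 FPKM in CabR and 1.17 in TaxR, against 5.54 in C4-2B, and was lower. The other genes of the list of 18, UGT2B17 aside, did not pass.

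**Figure D3:**
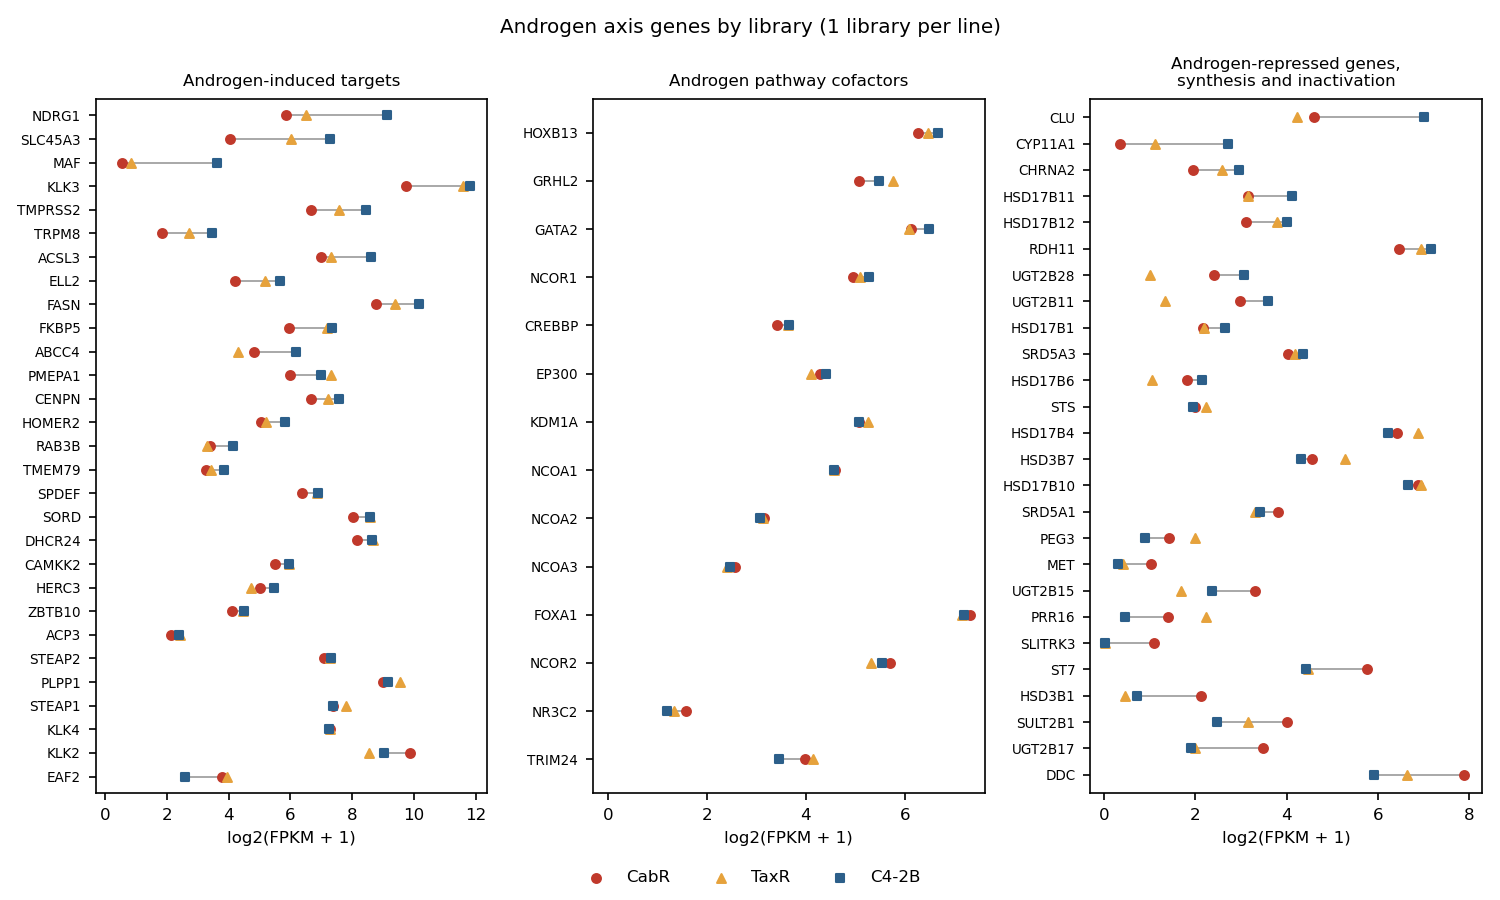
Level of each measured androgen-induced gene (left), cofactor gene (middle) and androgen-repressed or steroid enzyme gene (right) in CabR (circles), TaxR (triangles) and C4-2B (squares), as log2(FPKM + 1), 1 library per line. Circles lie left of squares for most induced targets, all middle-panel pairs are closer than a log2 ratio of 1, and DDC, UGT2B17 and SULT2B1 lie to the right in CabR.

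Lipid synthesis, which androgen and SREBP factors both drive in this lineage, was lower in part, mainly among fatty acid genes. Of 25 measured fatty acid genes 9 were lower, all of them in synthesis, elongation, desaturation or activation, and PPARG was higher. FASN, fatty acid synthase, had 433 FPKM in CabR and 665 in TaxR, against 1147 in C4-2B. The elongase ELOVL5 had 189.7 FPKM in CabR and 355 in TaxR, against 589 in C4-2B, ELOVL7 had 43.3 in CabR and 54.97 in TaxR, against 132 in C4-2B, and ELOVL2 was listed at 0 in CabR, against 6.43 FPKM in C4-2B. ACSL3, which activates fatty acids, had 127 FPKM in CabR and 159 in TaxR, against 389 in C4-2B. Oxidation genes such as CPT1A, at 60.8 FPKM in CabR, against 47.9 in C4-2B, did not pass. PPARG, a nuclear receptor for fatty acids, had 4.03 FPKM in CabR and 2.06 in TaxR, against 0.863 in C4-2B.

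Of 28 cholesterol genes 4 were lower (14.3%, against 7.48% of all measured genes) and none was higher, with a median of -0.11. STARD4, a cholesterol carrier between membranes, had 3.55 FPKM in CabR and 10.7 in TaxR, against 44.3 in C4-2B. INSIG1, which holds SREBP back, had 169 FPKM in CabR and 152 in TaxR, against 471 in C4-2B.

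Stress-response genes were lower in CabR in many cases and higher in none of the list. Of 36 measured genes of the ATF4 and unfolded protein response 12 were lower and none was higher, with a median of -0.70. DDIT4, an mTOR inhibitor that hypoxia also induces, had 147 FPKM in CabR and 159 in TaxR, against 823 in C4-2B. The cystine importer SLC7A11 had 4.47 FPKM in CabR and 3.99 in TaxR, against 29.7 in C4-2B, and CHAC1, which degrades glutathione, had 2.71 in CabR and 0.743 in TaxR, against 11.5 in C4-2B. VLDLR, a lipoprotein receptor, had 4.999 FPKM in CabR and 5.93 in TaxR, against 21.6 in C4-2B. FGF21, a hormone that ATF4 induces, was listed at 0 in CabR and TaxR, against 2.13 FPKM in C4-2B.

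Of 22 AP-1 and immediate early genes 10 were lower and 1 was higher, with a median of -0.86, or -0.49 with a pseudocount of 5. EGR1, a zinc finger factor induced by growth signals, had 0.247 FPKM in CabR and 0.182 in TaxR, against 5.96 in C4-2B. FOS had 0.589 FPKM in CabR and 0.678 in TaxR, against 7.56 in C4-2B, and ATF3, which is shared with the ATF4 list, had 6.48 in CabR and 7.07 in TaxR, against 24.5 in C4-2B. PHLDA1 was the higher one, with 12.9 FPKM in CabR and 1.49 in TaxR, against 2.82 in C4-2B.

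In the antioxidant list of NRF2 targets and glutathione genes 4 of 31 were lower (12.9%, against 7.48% of all measured genes) and none was higher, led by heme oxygenase HMOX1, with 7.16 FPKM in CabR and 5.69 in TaxR, against 47.8 in C4-2B, and SLC7A11. NQO1, a quinone reductase, had 87.7 FPKM in CabR and 127 in TaxR, against 184 in C4-2B. In the DNA damage list of 26, 3 were lower (11.5%) and none was higher. GDF15, a stress cytokine of that list, had 57.2 FPKM in CabR and 84.7 in TaxR, against 1016 in C4-2B. Its ratio was the fifth-lowest of the ranked protein-coding genes, while CDKN1A had 43.9 FPKM in CabR, against 39.5 in C4-2B, and did not pass. BBC3, a proapoptotic BCL2-family member, had 3.01 FPKM in CabR and 2.25 in TaxR, against 9.03 in C4-2B.

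Genes of mitosis and DNA replication did not pass the rule. None of 30 spindle checkpoint and mitotic genes and none of 33 replication genes was called, and their medians were 0.27 and 0.23. MKI67, a marker of cycling cells, had 20.2 FPKM in CabR, against 19.3 in C4-2B, and CDK1 had 382 in CabR, against 281 in C4-2B. NDC80, an outer kinetochore protein, had the highest ratio of the spindle list at 0.84. The inhibitor CDKN1C was lower, with 4.37 FPKM in CabR and 10.2 in TaxR, against 31.6 in C4-2B, as was CDKN2A, with 6.55 in CabR and 12.5 in TaxR, against 16.2 in C4-2B. BARD1, the BRCA1 partner, was the only called gene of 23 in homologous recombination (4.35% higher, against 3.23% of all measured genes). It had 39.5 FPKM in CabR and 27.1 in TaxR, against 18.1 in C4-2B.

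In class I antigen presentation the genes HLA-B, HLA-C, HLA-E and HLA-F were the 4 lower members of 14, and none was higher. With a pseudocount of 5 HLA-E, at a log2 ratio of -0.88, and HLA-F, at -0.68, no longer passed. HLA-B had 17.3 FPKM in CabR and 41.5 in TaxR, against 64.1 in C4-2B, and HLA-C had 53.3 in CabR and 128 in TaxR, against 161 in C4-2B. B2M, the shared light chain, had 171 FPKM in CabR and 203 in TaxR, against 289 in C4-2B, under the rule at -0.76. HLA genes are polymorphic paralogs that can share reads, HLA-B and HLA-C overlap in the annotation, and all 4 lie on chromosome 6, whose coding genes had a median of -0.23. The part of either in these values was not tested.

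Of 19 measured members of a list of drug targets under study 6 were lower and none was higher, and 5 of the 6 are surface proteins. PSCA, a GPI-anchored antigen, had 27.5 FPKM in CabR and 43.6 in TaxR, against 59.2 in C4-2B. ERBB3, a kinase-impaired receptor, had 41.7 FPKM in CabR and 59.4 in TaxR, against 89.8 in C4-2B, and the choline transporter SLC44A4 had 33.7 in CabR and 46.9 in TaxR, against 72.1 in C4-2B. GUCY1A1, the other lower member, is a subunit of soluble guanylate cyclase and no surface protein. It had 0.914 FPKM in CabR and 2.32 in TaxR, against 26.01 in C4-2B. The antigens STEAP1, at 165 FPKM in CabR, against 163 in C4-2B, and CD276, at 61.2 in CabR, against 65.4 in C4-2B, did not pass.

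In the insulin-like growth factor list 3 of 11 measured genes were lower (27.3%, against 7.48% of all measured genes). In the same list 1 was higher (9.09%, against 3.23%). Among ERBB, MET and FGF receptors and ligands 4 of 15 were lower (26.7%) and none was higher. IGFBP3, which binds insulin-like growth factors, had 116 FPKM in CabR and 30.9 in TaxR, against 13.01 in C4-2B, and the ligand IGF1 had 6.71 in CabR and 11.2 in TaxR, against 44.1 in C4-2B. EGF had 2.39 FPKM in CabR and 1.75 in TaxR, against 9.52 in C4-2B, and ERRFI1, a feedback inhibitor of its receptor, had 15.6 in CabR and 15.96 in TaxR, against 44.97 in C4-2B. In the TGF-beta and BMP list of 24, 1 gene was higher (4.17%) and 4 were lower (16.7%). BMP7 was the higher one, with 14.1 FPKM in CabR and 8.59 in TaxR, against 3.96 in C4-2B. The decoy receptor BAMBI was lower, with 4.75 in CabR and 3.15 in TaxR, against 16.8 in C4-2B. In the PI3K list 2 of 28 were higher and 2 were lower (7.14% each, against 3.23% and 7.48% of all measured genes). The kinase SGK1 was higher, with 7.17 FPKM in CabR and 6.37 in TaxR, against 0.913 in C4-2B. The phosphatase INPP4B was lower, with 1.103 in CabR and 2.29 in TaxR, against 8.93 in C4-2B.

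FN1, which encodes fibronectin, had 854 FPKM in CabR and 662 in TaxR, against 71.7 in C4-2B, the fourth-highest ratio of the protein-coding genes. Of the other matrix genes LAMB1, a laminin chain, passed, with 4.296 FPKM in CabR and 0.812 in TaxR, against 1.54 in C4-2B, and the list of 24 had a median of -0.34. Of 22 matrix proteases and inhibitors 2 were higher and 2 were lower (9.09% each, against 3.23% and 7.48% of all measured genes). The membrane protease MMP14, a higher one, had 3.34 FPKM in CabR and 0.846 in TaxR, against 0.252 in C4-2B. Of 36 measured epithelial junction genes and regulators 3 were lower (8.33%, against 7.48% of all measured genes) and none was higher. Among the lower ones E-cadherin, CDH1, had 94.5 FPKM in CabR and 183 in TaxR, against 214 in C4-2B. Desmoplakin, DSP, another of them, had 20.1 in CabR and 30.8 in TaxR, against 64.4 in C4-2B. In the mesenchymal list none was higher, and SNAI2, a repressor of CDH1, was lower, with 1.08 FPKM in CabR and 6.98 in TaxR, against 4.89 in C4-2B.

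Some developmental and germline genes were among those raised. HOXA11, HOXB6 and HOXD13 were the 3 higher of 19 measured HOX genes (15.8%, against 3.23% of all measured genes), and none was lower. The median was 0.61, or 0.32 with a pseudocount of 5 and 0.063 with no filter on low values. HOXB6 and HOXD13 no longer passed with a pseudocount of 5. HOXA11 had 8.83 FPKM in CabR and 3.57 in TaxR, against 1.61 in C4-2B, and it overlaps HOXA11-AS on the opposite strand. HOXD13, at 2.52 FPKM in CabR and 7.005 in TaxR, was listed at 0 in C4-2B. Of 19 cancer/testis antigens 5 were higher (26.3%, against 3.23% of all measured genes) and 2 lower (10.5%, against 7.48%). CTAG2 had 88.7 FPKM in CabR and 60.2 in TaxR, against 30.6 in C4-2B, and MAGEA10 had 53.98 in CabR and 33.8 in TaxR, against 23.8 in C4-2B. Members of these families share sequence and can share reads.

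SYT4, a synaptotagmin of secretory vesicles, had 94.4 FPKM in CabR and 121 in TaxR, against 14.6 in C4-2B. CBLN2, a synapse organiser, had 14.03 FPKM in CabR and 7.86 in TaxR, against 0.884 in C4-2B. GCH1, which starts tetrahydrobiopterin synthesis, had 66.6 FPKM in CabR and 89.7 in TaxR, against 12.3 in C4-2B, and was higher together with DDC, the 2 called of 11 in that list. The neuroendocrine list as a whole had 1 higher and 1 lower of 14, with a median of -0.01. These are 7.14% each, against 3.23% higher and 7.48% lower of all measured genes.

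Several of the highest genes were high in CabR and low in TaxR as well as in C4-2B. STXBP5, also called tomosyn, binds SNARE proteins and had 52.4 FPKM in CabR and 3.82 in TaxR, against 4.17 in C4-2B. PLA2G2A, a secreted phospholipase, had 16.02 FPKM in CabR and 0.162 in TaxR, against 0.727 in C4-2B. LMO4, a LIM-domain adaptor, had 90.3 FPKM in CabR and 17.6 in TaxR, against 15.2 in C4-2B, and PCDH20, a protocadherin, had 9.91 in CabR and 0.538 in TaxR, against 0.929 in C4-2B. The remaining genes of the 20 highest, TFF2, C1QTNF5, TTPA, OSR2, CR1, SPAG16, DMKN and VCX2, had log2 ratios between 2.33 and 2.70. STXBP5 overlaps STXBP5-AS1 on the opposite strand.

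Among the 20 lowest, several genes belonged to none of the lists. PTGFR, the receptor for prostaglandin F2alpha, had 0.557 FPKM in CabR and 6.71 in TaxR, against 40.5 in C4-2B, and MAB21L4 had 0.746 in CabR and 3.19 in TaxR, against 51.4 in C4-2B. AGR2, a disulfide isomerase of secretory epithelia, had 0.225 FPKM in CabR and 1.58 in TaxR, against 12.8 in C4-2B. VSTM2L, SH3D21, LRG1 and HYAL1 had log2 ratios between -3.58 and -3.08. In these 4 genes the TaxR level lay between 1.12 and 4.03 FPKM, nearer to CabR than to C4-2B.

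Genes that were nearly absent in one library and present in the other were counted separately. RUNDC3B, HOXD13, NKAIN3, CR1 and H4C12 were under 0.1 FPKM in C4-2B and at 2 or more in CabR, and 16 genes showed the opposite. The 16 included EPHA6, an ephrin receptor, at 0 FPKM in CabR and 4.13 in TaxR, against 4.95 in C4-2B, and PLEK2, a pleckstrin, at 0 in CabR and 0.463 in TaxR, against 3.72 in C4-2B. AKAP12, a kinase scaffold, had 0.0936 FPKM in CabR and 0.5096 in TaxR, against 4.29 in C4-2B.

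**Figure D4:**
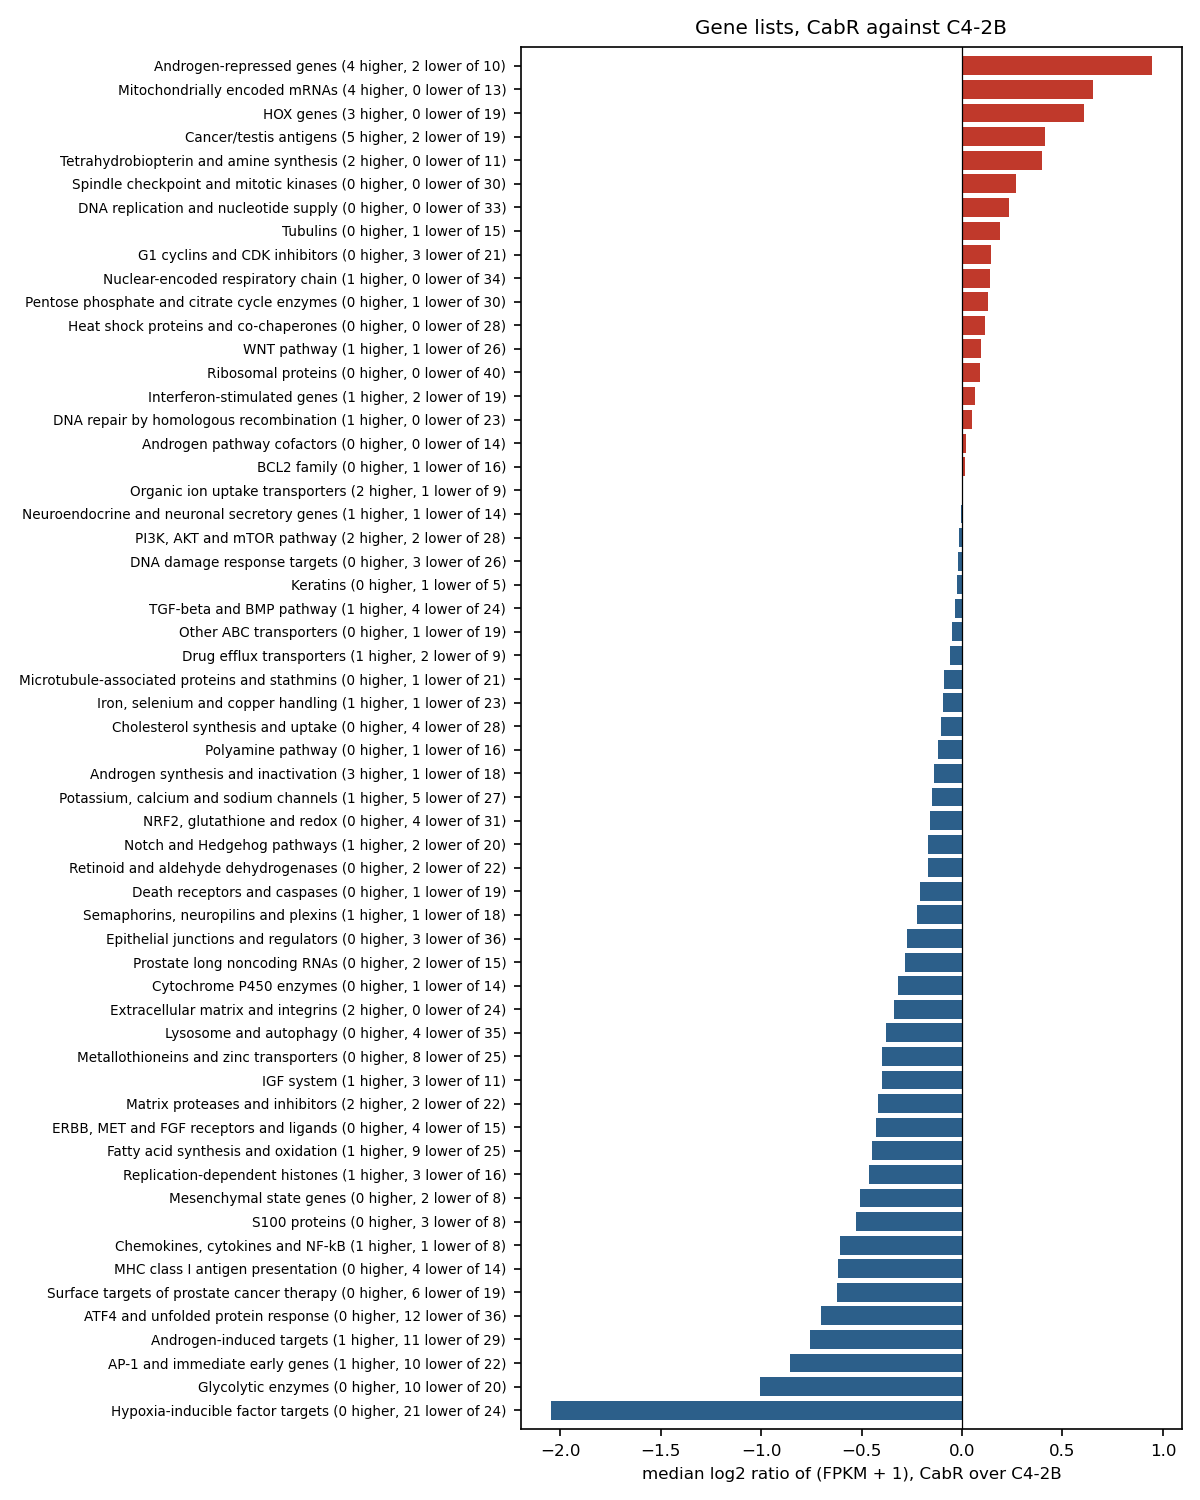
Median log2 ratio of (FPKM + 1), CabR over C4-2B, for each of 58 gene lists (horizontal axis), with the number of members higher and lower of those measured after each name. The hypoxia list has the lowest median, -2.05, and the androgen-repressed genes lie at 0.95, or 0.30 with a pseudocount of 5, while the median of all measured genes is -0.04.

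Of all 58 lists 5 held no called gene. None of 40 ribosomal proteins was called, with a median of 0.09, and none of 28 heat shock proteins and co-chaperones, with a median of 0.11. Replication-dependent histones, with 1 higher and 3 lower of 16, are poorly sampled where mRNA is selected by its poly(A) tail.

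Differences were not spread evenly over the chromosomes. On chromosome 16 the median log2 ratio of 588 measured coding genes was -0.27, with 3 higher and 61 lower (10.4%, against 5.67% over all measured coding genes), and 72.8% of ratios were below 0. All 8 windows of 10 Mb with at least 20 measured genes had a median below 0, between -0.37 and -0.19. On chromosome 6 the median of 601 genes was -0.23, with 11 higher and 64 lower (10.6%). On chromosome 7 the median of 551 genes was 0.26, with 41 higher (7.44%, against 2.49% over all) and 23 lower, and all 11 windows lay above 0, between 0.15 and 0.37. The rest of the chromosomes had medians between -0.15 on chromosome 4 and 0.11 on chromosome 2. On chromosome 4 there were 7 higher and 42 lower coding genes (10.4%), and 62% of ratios were below 0. The lowest window median of all lay there, -0.60 over 24 genes between 150 and 160 Mb, and the highest lay on chromosome 2, 0.44 over 51 genes between 70 and 80 Mb.

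In TaxR against C4-2B, which shares the C4-2B library, the same medians were -0.04 for chromosome 16, -0.03 for chromosome 6, -0.0034 for chromosome 7 and 0.11 for chromosome 2. The TaxR medians of chromosomes 16, 6 and 7 were thus near 0, while that of chromosome 2 was close to the CabR one. In CTXR against DU145, which shares no library, the chromosome 7 median was -0.24 and that of chromosome 16 was -0.07. DNA copy number was not analysed here. ABCB1, RUNDC3B, IGFBP3, DDC, ST7, HOXA11 and CYCS lie on chromosome 7, the metallothioneins and MAF on chromosome 16, and VEGFA and the HLA genes on chromosome 6. Most of these genes were named because they passed the size rule, so ratios beyond the median of their chromosome follow from that choice. The part of the chromosome in their values was not tested.

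**Figure D5:**
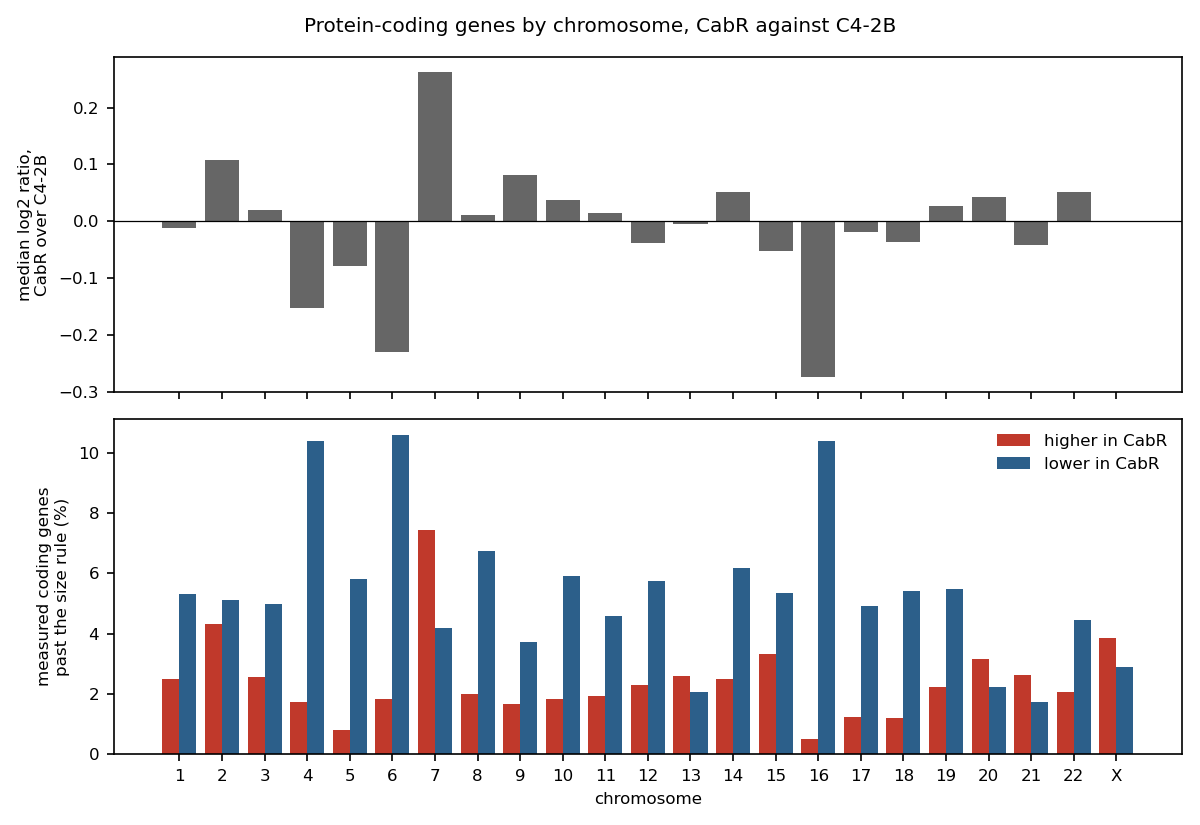
Median log2 ratio of (FPKM + 1), CabR over C4-2B, of measured protein-coding genes by chromosome (top), and percentage of them past the size rule in each direction (bottom). Chromosome 7 is highest at 0.26, chromosomes 16 and 6 are lowest at -0.27 and -0.23, and chromosome 16 has the smallest share of higher genes, 0.51%.

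Of 2620 measured genes not annotated as protein-coding 171 were higher (6.53%, against 2.49% of coding genes) and 411 were lower (15.7%, against 5.67% of coding genes). Their median was -0.26. They include pseudogenes, such as 270 processed ones, and genes without an annotated type, beside non-coding RNAs. MIR210HG, the host transcript of a hypoxia-induced microRNA, had 3.64 FPKM in CabR and 5.09 in TaxR, against 21.7 in C4-2B. NEAT1, the scaffold of paraspeckles, had 175 FPKM in CabR and 182 in TaxR, against 425 in C4-2B. Many non-coding genes sit near 1 FPKM, and antisense genes may hold reads of their partners.

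The other selected lineage gave a comparison that shares no library. Among 12722 genes measured in both lineages, 747 (5.87%) were higher and 660 (5.19%) were lower in CTXR against DU145, while the calls in CabR against C4-2B were 295 higher (2.32%) and 719 lower (5.65%). Of the higher genes 36 were shared, 12.2% of the CabR list and 4.82% of the CTXR list. Of the lower genes 82 were shared, 11.4% of the CabR list and 12.4% of the CTXR list. Genes called in opposite directions were about as many, with 41 of the CabR-higher genes lower in CTXR and 93 of the CabR-lower genes higher there.

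ABCB1 was higher in both lineages, at 94.2 FPKM in CTXR, against 0.304 in DU145. The shared higher genes also included the actin-binding thymosin TMSB4X, the protease MMP14 and PHLDA1. TMSB4X had 127 FPKM in CabR, against 26.9 in C4-2B, and in the other lineage 318 FPKM in CTXR, against 120.0 in DU145. NDRG1, SLC2A1, HK2 and SLC7A11 were lower in both lineages. For NDRG1 the level was 7.896 FPKM in CTXR, against 25.7 in DU145, a log2 ratio of -1.59. SLC2A1, the main glucose transporter, had 31.4 FPKM in CabR, against 113 in C4-2B, and in the other lineage 34.6 FPKM in CTXR, against 83.7 in DU145. Of 21 genes of the hypoxia list measured in both lineages 3 were higher and 3 were lower in CTXR against DU145, with a median log2 ratio of -0.31, and STC1 was among the higher ones. For the 20 glycolytic genes measured in both lineages, 1 was higher and 1 was lower in CTXR, with a median log2 ratio of 0.036.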

How the data were processed

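RNA was measured in 1 library each of CabR and C4-2B, with TaxR, CTXR and DU145 given beside them. Groups follow the sample labels. In the title of the TaxR sample stands the word old, with no explanation in the labels. RNA was isolated with TRIzol and sequenced from stranded mRNA libraries, per the labels' protocols. The submitters' processing notes name HISAT, StringTie, Cuffnorm and the build GRCh38, while for annotation, use of strand and joint scaling the answer is not given in the sources used here. Per library, the authors deposited 1 FPKM table, per the file headers, and these values were used as deposited. FPKM are model-based estimates, so an exact 0 can be a failed estimate.

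The log2 ratio of (FPKM + 1) was taken over genes at 1 FPKM or more in either library, and a size of at least 1 was called. No test was made, since each line has 1 library. Steps in 3035 low values put the depth of CabR at about 1.25 times that of C4-2B, and absolute depth is unknown. Of 60658 identifiers 56550 were matched to symbols and 57047 to GENCODE release 29, which gave biotypes and coordinates. Members and lists were chosen with earlier results of these data known. Protein-coding genes with only a clone name were left out of the ranking. Named genes are the 20 highest and 20 lowest of the other protein-coding genes by log2 ratio, and for each list up to 4 called members. Also named are KLK2, KLK3, UGT2B15, UGT2B17, the metallothioneins, runs of 4 or more called neighbours, and members under the rule where a list is described. Some genes are not reported here and are left out of the lists and their counts. Further called list members, switched genes, non-coding genes, chromosomes and genes shared with CTXR were named after their values were seen. Other pseudocounts, filters on low values, size thresholds and rescalings were tried as alternatives. The size rule was tried on simulated data with little noise and large planted changes. That run checked the code and says nothing about the error rate of the calls reported here. Python 3.11.15 with numpy 2.4.6, pandas 2.3.3 and matplotlib 3.10.9 was used.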

Additional observations from a re-analysis of the deposited data

Results flagged for a closer look

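A total of 19 named genes were past the size rule in both lineages but in opposite directions. They are listed for that reason, and the difference between the lineages was not tested, since each line has 1 library. In the following, the first value is the log2 ratio of CabR over C4-2B and the second that of CTXR over DU145.

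Genes higher in CabR and lower in CTXR were CYCS (1.25 and -1.16), IGFBP3 (3.06 and -3.88), IL11 (1.24 and -2.55), STXBP5 (3.37 and -1.54) and TTPA (2.43 and -1.17). The widest gap among these was at IGFBP3, with 116 FPKM in CabR, against 13.01 in C4-2B, while it had 0.863 FPKM in CTXR, against 26.4 in DU145. STXBP5 had 52.4 FPKM in CabR, against 4.17 in C4-2B, and 3.53 FPKM in CTXR, against 12.2 in DU145.

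Genes lower in CabR and higher in CTXR included the hypoxia or sterol genes ENO2 (-2.65 and 1.21), MSMO1 (-1.32 and 1.09), STARD4 (-3.32 and 1.08) and STC1 (-3.71 and 1.16), and the growth signalling genes ERRFI1 (-1.47 and 1.34), FOS (-2.43 and 1.38), GHR (-1.08 and 1.63) and IRS1 (-1.31 and 1.69). The others were DHRS3 (-2.44 and 1.14), IFI35 (-1.02 and 2.06), KCNMA1 (-2.77 and 3.23), KRT19 (-1.76 and 1.17), LGALS1 (-1.30 and 1.88) and SEMA4B (-1.49 and 2.84). KCNMA1, a calcium-activated potassium channel, had 4.86 FPKM in CabR, against 39.1 in C4-2B, while it had 26.3 FPKM in CTXR, against 1.91 in DU145.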

How the results depend on the processing

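Rescaling the libraries gave 488 to 527 higher and 997 to 1044 lower genes. With a pseudocount of 0.1 the counts were 844 higher and 1658 lower, and 91 higher and 177 lower genes were shared with CTXR. A pseudocount of 5 gave 108 and 326, a floor of 5 FPKM 234 and 641, and protein-coding genes alone 295 and 670. A log2 threshold of 1.5 gave 132 and 377, and one of 2 gave 64 and 149. The median of the IGF system changed sign with no filter on low values, at 0.0089, where genes under 1 FPKM in both libraries enter, against -0.40 as reported. Of 406 list medians under the alternatives 29 moved by more than 0.2. Of the 406, 23 in 11 lists had the other sign, among them Notch and Hedgehog genes with a floor of 5 FPKM, at 0.11 against -0.17 as reported. The other 9 lists were within 0.0626 of 0 as reported. Of the 166 genes picked by the naming rule none changed direction under the 5 alternatives run for them (2 pseudocounts, 3 scalings), and 74 of 830 values fell under the size rule. Other genes in the text were not run. Leaving out a replicate was not possible with 1 library per line. No paired analysis was possible because each line has a single library. Depth is unknown, so levels near 1 FPKM carry no counting interval.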

Other observations

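Of 27 measured ion channels 5 were lower (18.5%, against 7.48% of all measured genes) and 1 was higher (3.7%, against 3.23%). TRPM8, the cold and menthol channel that androgen induces in prostate, had 2.63 FPKM in CabR and 5.55 in TaxR, against 10.1 in C4-2B. KCNN2, a small-conductance potassium channel, had 4.56 FPKM in CabR and 22.3 in TaxR, against 15.4 in C4-2B, so its TaxR level was above that of both other libraries. KCNQ1, a voltage-gated potassium channel, was the higher one, with 6.05 FPKM in CabR and 4.003 in TaxR, against 2.38 in C4-2B.

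Of 19 measured interferon-stimulated genes 1 was higher (5.26%, against 3.23% of all measured genes) and 2 were lower (10.5%, against 7.48%). The median of that list was 0.06. BST2, the antiviral protein tetherin, had 5.26 FPKM in CabR and 1.13 in TaxR, against 21.8 in C4-2B. IRF9, the DNA-binding part of an interferon-activated complex, had 7.28 FPKM in CabR and 3.398 in TaxR, against 2.94 in C4-2B. LCN2, an iron-scavenging lipocalin, had 4.66 FPKM in CabR and 25.1 in TaxR, against 0.337 in C4-2B. Autophagy genes that passed were lower, with ATG9A, a lipid scramblase of forming autophagosomes, at 21.99 FPKM in CabR and 25.2 in TaxR, against 69.6 in C4-2B, and its paralog ATG9B at 20.6 in CabR and 20.98 in TaxR, against 78.6 in C4-2B.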
